A study of Mus musculus with 8 samples.

Results

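The mRNA of 10 surface and identity markers of mesenchymal progenitors was examined: *Ly6a*, *Ly6c1*, *Ly6e*, *Cd34*, *Thy1*, *Eng*, *Vcam1*, *Pi16*, *Cd55* and *Tcf7l2*. They were taken by name from the 31053 genes counted, and all 10 were found. *Ly6a* encodes SCA-1, *Ly6c1* and *Ly6e* are its paralogs, and the others are antigens or a transcription factor used to recognise fibro/adipogenic progenitors (FAPs) and related fibroblasts. The cells came from hind limb muscles of *mdx* mice (C57BL/10ScSn-Dmdmdx/J) aged 45 days, which lack dystrophin through a mutation in *Dmd*. FAPs negative for CD45, CD31 and ITGA7 and positive for SCA-1 were sorted into SCA1-High-FAPs and SCA1-Low-FAPs by the amount of SCA-1 on their surface, so SCA-1 carriage and the *mdx* background were common to both groups. Each cell state was kept in growth medium (GM) for 5 days, then lysed for RNA, with 4 biological replicates per cell state from 4 mice and 8 libraries in all. The description of the series takes SCA1-Low-FAPs as the control. The comparison asks how the cell states differed in GM, before differentiation was induced.

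FAPs are interstitial cells of skeletal muscle that support regeneration after injury, and that can become adipocytes or matrix-producing fibroblasts when regeneration fails. SCA-1 is a small protein of the Ly6/uPAR family, held at the outer face of the membrane by a glycosylphosphatidylinositol anchor, and is the antigen most often used to isolate mouse FAPs together with PDGFRA. *Ly6a*, *Ly6c1* and *Ly6e* lie in the *Ly6* cluster of mouse chromosome 15, and several genes of this cluster respond to interferons. Surface protein at the sort and mRNA after culture are different quantities, and only the latter was measured here.

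Between 1880561 and 3985656 reads per library were counted on genes. Relative to all these reads, without TMM factors, a floor of 3 counts corresponded to 0.753 to 1.60 CPM, a bound on counting error alone. Levels below are CPM (a gene's reads as a share of the reads on the 10181 genes that passed the count filter, scaled with TMM factors). In these 3′ libraries a transcript yields reads near its 3′ end whatever its length. The label of the cells was checked first. *Pdgfra*, which encodes the receptor that defines FAPs, averaged 223 ± 52.2 CPM in the libraries labelled SCA1-High-FAPs and 168 ± 14.1 CPM in those labelled SCA1-Low-FAPs (SD, n = 4 each), and the states did not differ beyond the threshold (log2 fold change −0.41, edgeR adjusted p = 0.159). Of the antigens excluded by the sort, *Ptprc* (CD45) had 1 count over all libraries, *Pecam1* (CD31) had 0 to 12 counts per library and *Itga7* had 0 to 18. *Ly6a* is the gene of the antigen on which the states were separated. Its mRNA was higher in every library labelled SCA1-Low-FAPs than in any labelled SCA1-High-FAPs. The labels name surface SCA-1 at the sort, whereas the mRNA was measured after 5 days in GM, so the *Ly6a* values do not test the labels. Directions below are those of the labels as deposited. In bulk RNA, fewer cells of a type and less RNA per cell cannot be told apart.

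Of the 10 genes, 8 had enough counts to be tested with all others by edgeR's quasi-likelihood test. *Thy1*, *Eng* and *Ly6a* were called, which required both an adjusted *p*-value below 0.05 and an absolute log2 fold change above 0.5. All 3 were higher in the libraries labelled SCA1-Low-FAPs, and 0 of the 8 were called higher in those labelled SCA1-High-FAPs. At an unadjusted p under 0.05 there were 4, the additional gene being *Vcam1*. By edgeR this level was reached by 2164 of all 10181 tested genes. Over all 10181 tested genes, 7.68% were called in either direction, 3.32% as higher in SCA1-Low-FAPs and 4.36% as higher in SCA1-High-FAPs. Over the 8 genes the median log2 fold change in SCA1-Low-FAPs relative to SCA1-High-FAPs was 0.32, and over all tested genes it was 0.0003. For the same 3 genes the states did not overlap, with every SCA1-Low-FAPs library above every SCA1-High-FAPs library, an arrangement found in 6.67% of tested genes. The reverse arrangement was found in 0 of the 8 genes and in 7.46% of all tested genes. The 3 calls were lost without replicate 1 of SCA1-Low-FAPs, when 4 genes still had an unadjusted p under 0.05 by edgeR. In that fit 417 of all 10535 tested genes were called. Only *Thy1* was called without replicate 2 of SCA1-Low-FAPs. *Cd55* and *Pi16* had too few counts for the test, and are described from their counts.

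**Figure D1:**
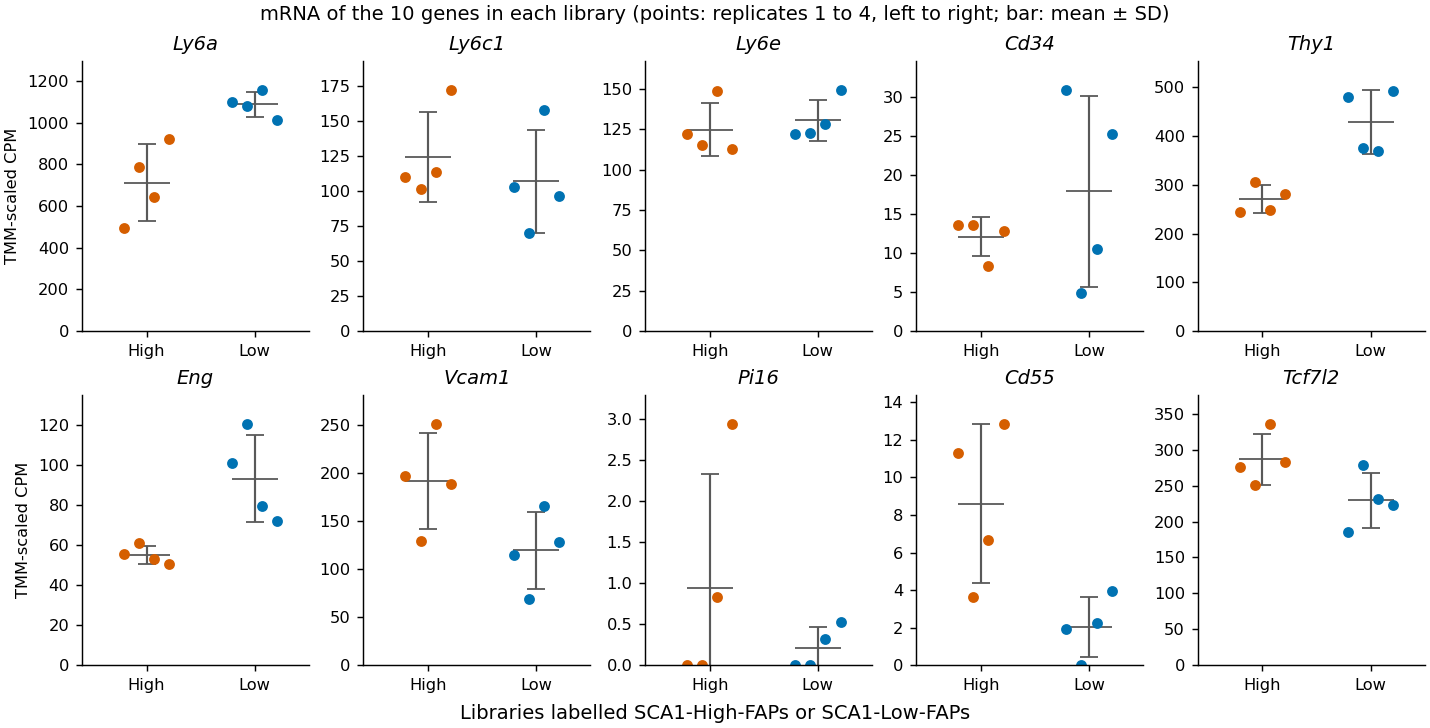
TMM-scaled CPM (vertical axes, each from 0) of the 10 genes in the 4 libraries labelled SCA1-High-FAPs (orange) and the 4 labelled SCA1-Low-FAPs (blue). Each point is 1 library, in the order of replicates 1 to 4, and the bars show the mean ± SD. For *Ly6a*, *Thy1* and *Eng* all blue points lie above all orange points.

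*Ly6a* mRNA rose in the libraries labelled SCA1-Low-FAPs. The gene (ENSMUSG00000075602) lies on the minus strand of chromosome 15 of GRCm38, from 74994877 to 74998031. Replicates 1 to 4 stood at 492, 789, 645 and 919 CPM in SCA1-High-FAPs and at 1100, 1080, 1156 and 1014 CPM in SCA1-Low-FAPs. The SCA1-Low-FAPs libraries lay close together, whereas the SCA1-High-FAPs libraries were spread out, and replicate 4 of the latter came nearest to the other cell state. Means were 711 ± 184 CPM and 1087 ± 58.8 CPM (SD, n = 4 each), with coefficients of variation of 25.9% and 5.40%. The mean was 1.53-fold higher in SCA1-Low-FAPs, and the log2 fold change was 0.61 (standard error 0.17, edgeR adjusted p = 0.0341). These levels rest on 1045 to 3841 counts of *Ly6a* per library. With a library left out, the log2 fold change stayed between 0.48 and 0.76, but the adjusted *p*-value from edgeR ran from 0.0124 to 0.0947. It passed in 1 of these 8 fits, that without replicate 4 of SCA1-High-FAPs, and the call was lost when any other single library of either state was removed.

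**Figure D2:**
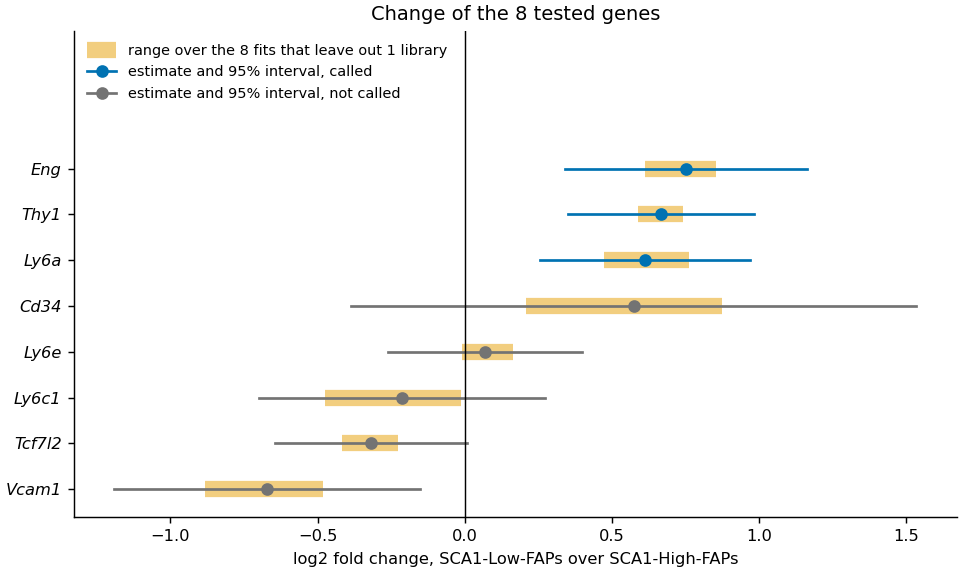
Log2 fold change in SCA1-Low-FAPs relative to SCA1-High-FAPs (horizontal axis) for the 8 tested genes. Points and lines are the edgeR estimates with 95% intervals that are not adjusted for the number of genes, blue where called and grey where not, and orange bands span the 8 fits that leave out 1 library. *Eng*, *Thy1* and *Ly6a* stand at 0.75, 0.67 and 0.61, and *Vcam1* at −0.67.

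The paralogs did not pass the test. *Ly6c1*, which encodes a LY6C antigen, lies on chromosome 15 from 75044018 to 75048830, on the minus strand. It stood at 110, 101, 114 and 172 CPM in SCA1-High-FAPs and at 103, 70.2, 158 and 96.9 CPM in SCA1-Low-FAPs. The states overlapped, and 1 library in each, replicate 4 of SCA1-High-FAPs and replicate 3 of SCA1-Low-FAPs, was well above the others. Means were 124 ± 32.4 CPM and 107 ± 36.8 CPM (SD, n = 4 each), with a log2 fold change of −0.21 whose 95% interval ran from −0.70 to 0.27 (edgeR adjusted p = 0.660). *Ly6e*, an interferon-inducible member that affects the entry of several viruses into cells, lies on the plus strand from 74955051 to 74959905. Its levels were 122, 115, 149 and 113 CPM in SCA1-High-FAPs and 122, 123, 128 and 149 CPM in SCA1-Low-FAPs. These ranges nearly coincided, and the means of 125 ± 16.5 CPM and 131 ± 12.8 CPM (SD, n = 4 each) gave a log2 fold change of 0.07 (95% interval −0.26 to 0.40, edgeR adjusted p = 0.861).

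Whether the 3 *Ly6* mRNAs changed unequally was tested on their ratios within each library, which do not depend on library scaling. The log2 ratio of *Ly6a* to *Ly6c1* CPM, with 0.5 CPM added to each, was 2.15, 2.96, 2.50 and 2.41 in SCA1-High-FAPs and 3.41, 3.93, 2.87 and 3.38 in SCA1-Low-FAPs. The groups overlapped only through replicate 3 of SCA1-Low-FAPs and replicate 2 of SCA1-High-FAPs. The difference in means was 0.89 (two-sided exact permutation test over 70 assignments, p = 0.0571, adjusted p = 0.129 over 3 ratios). Without replicate 3 of SCA1-Low-FAPs it was 1.07, with an exact p of 0.0286, the smallest that this design allows. The ratio of *Ly6a* to *Ly6e* differed by 0.58, from 2.48 ± 0.50 to 3.06 ± 0.20 (SD, n = 4 each, exact permutation p = 0.0857, adjusted p = 0.129). That of *Ly6c1* to *Ly6e* differed by −0.31 (exact permutation p = 0.400). A difference in change between *Ly6a* and its paralogs was thus not established by these tests.

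**Figure D3:**
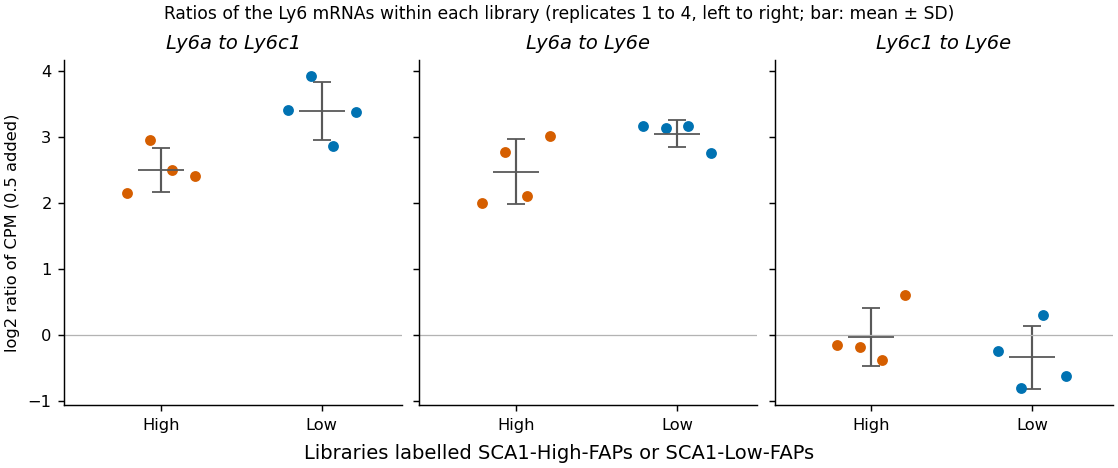
Log2 ratio of CPM (0.5 added) of each pair of *Ly6* mRNAs in the libraries labelled SCA1-High-FAPs (orange) and SCA1-Low-FAPs (blue), replicates 1 to 4 from left to right, with mean ± SD. The ratio of *Ly6a* to *Ly6c1* has means of 2.51 and 3.40, and the ratios of *Ly6c1* to *Ly6e* of the states overlap widely.

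Copies of the *Ly6* genes resemble each other, and reads that aligned to several places were given to no gene. Among all stretches of 50 bases in the last 400 bases of the coding transcripts, 29.4% of those of *Ly6c1* occurred in another gene, mostly *Ly6c2*, and 9.27% of those of *Ly6a* did. With stretches of 75 bases the shares were 18.4% and 0.151%. For the 8 other genes the share was 0 at both lengths. The counter's entry for alignments that were not unique made up 37.5% to 39.7% of its total in SCA1-High-FAPs and 40.8% to 43.3% in SCA1-Low-FAPs. This share also separated the states. Its part in the *Ly6* values was not tested, and the *Ly6c1* count in particular is uncertain. Of the wider Ly6/uPAR family, 18 of the 34 genes matched had a count and 4 could be tested. Of these 4, edgeR, DESeq2 and limma-voom called 0. An unadjusted p under 0.05 by edgeR was found for 2 of the 4, and for 2164 of all 10181 tested genes. *Lynx1* had a log2 fold change of −0.09 from edgeR, *Cd59a* of 0.21, *Lypd1* of −1.46 (adjusted p = 0.172) and *Plaur*, which encodes the urokinase receptor, of 1.18 (adjusted p = 0.176).

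Promoter sequences from RefSeq on GRCm38.p6, available here for 6 of the 10 genes, are shown for *Eng*, the one of the 3 called genes that has an entry, for *Ly6c1*, the paralog of *Ly6a*, and for *Cd55*, whose counts were lower in SCA1-Low-FAPs. *Ly6a*, *Ly6e*, *Thy1* and *Vcam1* have no entry. Each sequence is the 250 bases before the annotated start, 5′ to 3′ on the gene's strand. Capitals mark matches, searched on both strands. One motif was GGGCGG, the GC box, which 32.7% of 32851 promoter windows of this length hold. Another was the TATA box, with the letters TATAAA, which 12.4% of them hold. The windows are chr2:32646345-32646594 on the plus strand for *Eng*, chr15:75048838-75049087 on the minus strand for *Ly6c1* and chr1:130462745-130462994 on the minus strand for *Cd55*.
Eng: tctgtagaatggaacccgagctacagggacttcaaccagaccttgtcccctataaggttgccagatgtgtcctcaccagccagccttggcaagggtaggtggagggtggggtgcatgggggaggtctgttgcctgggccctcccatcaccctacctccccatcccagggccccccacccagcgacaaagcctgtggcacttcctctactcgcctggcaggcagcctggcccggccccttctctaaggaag
Ly6c1: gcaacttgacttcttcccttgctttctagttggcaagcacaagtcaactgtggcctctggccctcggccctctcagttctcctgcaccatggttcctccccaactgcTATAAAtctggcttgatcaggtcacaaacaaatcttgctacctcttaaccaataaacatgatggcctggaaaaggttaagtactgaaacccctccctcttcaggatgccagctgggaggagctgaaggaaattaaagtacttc
Cd55: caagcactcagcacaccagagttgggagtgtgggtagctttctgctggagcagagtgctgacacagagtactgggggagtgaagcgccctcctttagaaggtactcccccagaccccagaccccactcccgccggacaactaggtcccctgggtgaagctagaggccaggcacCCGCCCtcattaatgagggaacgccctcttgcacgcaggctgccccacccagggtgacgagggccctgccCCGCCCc
The *Eng* window, with a GC content of 62.4%, held none of the motifs searched. That of *Ly6c1* had 48.4% GC and 1 TATAAA at position −143 from the start, and that of *Cd55* had 64.0% GC and 2 GC boxes, read on the opposite strand as CCGCCC, at −77 and −7. TTCNNNGAA, the GAS motif bound by STAT factors, and the core of the interferon-stimulated response element, present in 7.02% and 2.98% of all windows, were found in none of the 6 promoters. A match or its absence describes these letters only.

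*Thy1* and *Eng* rose together with *Ly6a*. *Thy1* encodes CD90, a glycosylphosphatidylinositol-anchored immunoglobulin-like protein of fibroblasts and mesenchymal stromal cells, and lies on chromosome 9 from 44043384 to 44048579, on the plus strand. It stood at 244, 306, 249 and 282 CPM in SCA1-High-FAPs and at 479, 375, 370 and 492 CPM in SCA1-Low-FAPs. Within SCA1-Low-FAPs, replicates 1 and 4 were high and replicates 2 and 3 lower, all above the highest SCA1-High-FAPs library. Means were 270 ± 28.9 CPM and 429 ± 65.7 CPM (SD, n = 4 each), a 1.59-fold difference (log2 fold change 0.67, standard error 0.15, edgeR adjusted p = 0.0105). The log2 fold change stayed between 0.59 and 0.74 with a library left out, and edgeR called *Thy1* in 7 of these 8 fits. The exception was the fit without replicate 1 of SCA1-Low-FAPs, with an adjusted *p*-value of 0.0507.

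*Eng* encodes endoglin (CD105), a co-receptor for ligands of the TGF-beta and BMP families that marks endothelium and mesenchymal stromal cells. The gene lies on chromosome 2 from 32646595 to 32682669, on the plus strand, directly after the promoter shown above. Levels were 55.6, 61.0, 53.0 and 50.6 CPM in SCA1-High-FAPs and 101, 120, 79.3 and 72.1 CPM in SCA1-Low-FAPs. Here the SCA1-High-FAPs libraries were the tight group, and replicates 1 and 2 of SCA1-Low-FAPs the highest. Means of 55.1 ± 4.47 CPM and 93.2 ± 21.9 CPM (SD, n = 4 each) were 1.69-fold apart (log2 fold change 0.75, standard error 0.20, edgeR adjusted p = 0.0241). With a library left out the log2 fold change was 0.61 to 0.85. *Eng* was called in 5 of the 8 fits, and lost without replicate 4 of SCA1-High-FAPs (edgeR adjusted p = 0.0596) and without replicates 1 or 2 of SCA1-Low-FAPs (0.0792 and 0.0828).

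Because endoglin is abundant on endothelium, the endothelial list was read beside it. The summed level of its 14 genes was 38.1 to 81.0 CPM in SCA1-High-FAPs against 18.4 to 32.7 CPM in SCA1-Low-FAPs, opposite in direction to *Eng*. *Pecam1* differed from this sum, since its few counts all lay in SCA1-Low-FAPs, with 1, 12, 0 and 4 in replicates 1 to 4, and replicate 2 was also the highest for *Eng*. The part of endothelial RNA in the *Eng* values was not tested. *Cldn5*, *Emcn*, *Erg*, *Sox17* and *Tie1* had no counts in any library, and only 2 of the 14 genes had enough counts to be tested. Of these 2, *Ramp2* was called, and fell by 1.47 on the log2 scale (edgeR adjusted p = 0.0071). *Eng* shares 61 exon bases with *Fpgs* on the opposite strand, and the strand setting of the counting is not given in the sources used here. Among 20 tested receptors and partners of the 10 proteins, the median log2 fold change was −0.05. Of all 10181 tested genes, 7.68% were called in either direction. Of the 20, 1 was called higher in SCA1-Low-FAPs and 3 were called higher in SCA1-High-FAPs. The first was *Itga5*, the alpha chain of the fibronectin receptor, with a log2 fold change of 1.39 (edgeR adjusted p = 0.0116). The 3 others were the activin receptor *Acvr2a* (−0.97), betaglycan *Tgfbr3* (−0.79), which is the relative of endoglin, and *Itga9* (−1.04), a chain of an integrin that binds VCAM1. *Acvrl1*, the type I receptor with which endoglin acts, had a log2 fold change of 0.06, and *Id1*, a target of BMP signalling, of 0.14, and neither passed (edgeR adjusted p = 0.924 and 0.743).

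*Vcam1* lay in the opposite direction without passing the test. It encodes the vascular cell adhesion molecule, a ligand of leucocyte integrins that FAPs carry during inflammation, and lies on chromosome 3 from 116109949 to 116129688, on the minus strand. Levels were 197, 129, 251 and 189 CPM in SCA1-High-FAPs and 115, 69.2, 166 and 129 CPM in SCA1-Low-FAPs. Replicate 2 was the lowest and replicate 3 the highest in each state, and the states overlapped. Means were 192 ± 49.9 CPM and 120 ± 40.1 CPM (SD, n = 4 each), with a log2 fold change of −0.67 (standard error 0.24, 95% interval −1.19 to −0.15, edgeR adjusted p = 0.113). Without replicate 3 of SCA1-Low-FAPs the log2 fold change was −0.88 and passed (edgeR adjusted p = 0.0271), whereas the 7 other fits with a library left out did not. Without the filter on low counts it also passed, at −0.65 (edgeR adjusted p = 0.0387). *Vcam1* is a target of NF-kB, and of 16 other tested NF-kB targets edgeR called 0, with a median log2 fold change of −0.26. They did not move one way, with 6 positive and 10 negative. For 2 of the 16 every SCA1-Low-FAPs library lay above every SCA1-High-FAPs library, and for 0 the reverse held. The list summed to 1959 to 2712 CPM in SCA1-High-FAPs and 2263 to 2965 CPM in SCA1-Low-FAPs. An unadjusted p under 0.05 by edgeR was found for 5 of the 16, and for 2164 of all 10181 tested genes. DESeq2 called 4 of the NF-kB targets and limma-voom 2.

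*Cd34*, *Cd55* and *Pi16*, markers of adventitial and other progenitor-like fibroblasts, were scarce in both cell states. *Cd34* encodes a sialomucin of progenitors and endothelium, and lies on chromosome 1 from 194938819 to 194961279, on the plus strand. It stood at 13.7, 13.6, 8.35 and 12.8 CPM in SCA1-High-FAPs and at 30.9, 4.90, 10.5 and 25.3 CPM in SCA1-Low-FAPs. Replicates 1 and 4 of SCA1-Low-FAPs were above all SCA1-High-FAPs libraries and replicate 2 below all of them. The log2 fold change of 0.57 therefore had a wide 95% interval, from −0.39 to 1.54 (edgeR adjusted p = 0.520). In SCA1-Low-FAPs, *Thy1* was also highest in replicates 4 and 1, which is a description of 4 libraries. *Cd34* shares 148 exon bases with *Gm16897* on the opposite strand. Also on the opposite strand, *Vcam1* shares 61 exon bases with *Gm43109*, *Cd55* 102 with *Gm16083* and *Pi16* 222 with *AC162182.1*. The last of these overlapping genes was not among the genes counted.

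*Cd55*, which encodes decay-accelerating factor, an inhibitor of complement held by a glycosylphosphatidylinositol anchor, lies on chromosome 1 from 130439027 to 130462744, on the minus strand. It had 24, 8, 16 and 35 counts in SCA1-High-FAPs and 4, 0, 7 and 15 counts in SCA1-Low-FAPs. Scaled to depth, these were 11.3, 3.62, 6.68 and 12.8 CPM and 1.93, 0, 2.22 and 3.96 CPM. The states overlapped through replicate 2 of SCA1-High-FAPs and replicate 4 of SCA1-Low-FAPs. The mean of 8.61 ± 4.23 CPM in SCA1-High-FAPs was 4.24-fold that of 2.03 ± 1.62 CPM in SCA1-Low-FAPs (SD, n = 4 each). On the log2 scale of CPM with 0.5 added, the difference was −2.07 (two-sided exact permutation p = 0.0571). This scale understates changes of low genes, and the difference was −1.40 with 2 CPM added and −2.73 with 0.1 CPM added. Without replicate 4 of SCA1-Low-FAPs it was −2.47, with an exact p of 0.0286, the smallest possible. Fits that did not remove *Cd55* gave log2 fold changes of −2.003 with DESeq2 (adjusted p = 0.0605) and −1.95 with edgeR and no filter (adjusted p = 0.0776), and neither passed.

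*Pi16*, a secreted or membrane-bound peptidase inhibitor-like protein that marks fibroblasts of the vessel adventitia, lies on chromosome 17 from 29317680 to 29330593, on the plus strand. It had 0, 0, 2 and 8 counts in SCA1-High-FAPs and 0, 0, 1 and 2 counts in SCA1-Low-FAPs. All but 1 library were below 3 counts, and no difference was detectable at this depth (two-sided exact permutation p = 0.543). Other adventitial progenitor genes did not move one way. Of 21 tested, 2 were called higher in SCA1-Low-FAPs and 4 were called higher in SCA1-High-FAPs, giving a median log2 fold change of 0.18. Calls in either direction made up 7.68% of all 10181 tested genes. By edgeR, 16 of the 21 had an unadjusted p under 0.05, as did 2164 of all 10181 tested genes. The collagen gene *Col15a1* (−2.98), the ferritin receptor gene *Scara5* (−3.13), *Limch1* (−2.07) and the microfibril gene *Mfap5* (−0.58) fell in SCA1-Low-FAPs, whereas *Anxa3* (0.99), an annexin, and *Ugdh* (0.83), which makes the UDP-glucuronate used for hyaluronan, rose. Their adjusted *p*-values from edgeR ranged from 0.0010 to 0.0375.

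Other antigens of mesenchymal cells were likewise divided. Of 25 tested, 2 were called higher in SCA1-Low-FAPs and 2 were called higher in SCA1-High-FAPs, and the median log2 fold change was 0.08. Calls in either direction made up 7.68% of all 10181 tested genes. By edgeR, 10 of the 25 had an unadjusted p under 0.05, as did 2164 of all 10181 tested genes. *Cd44*, the hyaluronan receptor, was at 168 ± 67.5 CPM in SCA1-High-FAPs against 360 ± 55.7 CPM in SCA1-Low-FAPs (SD, n = 4 each, log2 fold change 1.10, edgeR adjusted p = 0.0216), and *Itga5* rose as given above. *Fap*, a cell-surface protease of activated fibroblasts, fell from 62.2 ± 36.1 CPM to 5.26 ± 4.30 CPM (SD, n = 4 each, log2 fold change −3.46, edgeR adjusted p = 0.0020). *Gpc3*, a heparan sulphate proteoglycan of the membrane, had a log2 fold change of −1.90 (edgeR adjusted p = 0.0034). Of the antigens used for cytometry in the study, *Pdgfrb* was at 114 ± 34.8 CPM and 148 ± 44.9 CPM (SD, n = 4 each, log2 fold change 0.37, edgeR adjusted p = 0.495), and *Mcam* had 2 to 26 counts per library and was not tested.

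*Tcf7l2*, the only nuclear factor among the 10, encodes a mediator of Wnt signalling and marks connective tissue fibroblasts of muscle. It lies on chromosome 19 from 55741820 to 55933654, on the plus strand. Levels were 276, 251, 336 and 283 CPM in SCA1-High-FAPs and 186, 279, 232 and 223 CPM in SCA1-Low-FAPs. Replicate 2 of SCA1-Low-FAPs lay among the SCA1-High-FAPs libraries, and the other 3 lay below them all. Means of 287 ± 35.5 CPM and 230 ± 38.3 CPM (SD, n = 4 each) corresponded to a log2 fold change of −0.32 (standard error 0.16, 95% interval −0.65 to 0.0076, edgeR adjusted p = 0.247). Among 21 tested genes of the TCF/LEF family and the Wnt pathway, the median log2 fold change was −0.24. Of all 10181 tested genes, 4.36% were called as higher in SCA1-High-FAPs. Of the 21, 3 were called, each higher in SCA1-High-FAPs. These were *Tcf7l1*, the paralog of *Tcf7l2* that mostly acts as a repressor (log2 fold change −0.76, edgeR adjusted p = 0.0112), the co-receptor *Lrp6* (−0.85, edgeR adjusted p = 0.0131) and *Nkd1*, a Wnt target that restrains the pathway (−1.77, edgeR adjusted p = 0.0331). *Ctnnb1*, the gene of beta-catenin, had a log2 fold change of −0.04 (edgeR adjusted p = 0.897). Of 23 tested transcription factors of FAPs, 4 were called, each higher in SCA1-High-FAPs (median −0.29). By edgeR, 11 of the 23 had an unadjusted p under 0.05, as did 2164 of all 10181 tested genes. *Zeb2* (−1.05), *Ebf1* (−0.82), *Snai2* (−0.79) and *Ebf3* (−1.16) fell, with adjusted *p*-values from edgeR of 0.0012 to 0.0182.

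Interferon-stimulated genes were described because *Ly6a* and *Ly6e* are inducible by interferon. Of 22 tested, 4 were called by edgeR, each higher in SCA1-High-FAPs, and 21 had a negative log2 fold change (median −0.71). Of all 10181 tested genes, 4.36% were called as higher in SCA1-High-FAPs. DESeq2 called 8 of the list and limma-voom 5. *B2m*, the light chain of MHC class I, was at 783 ± 114 CPM in SCA1-High-FAPs against 492 ± 29.4 CPM in SCA1-Low-FAPs (SD, n = 4 each, log2 fold change −0.67, edgeR adjusted p = 0.0076). The RNA sensor *Ifih1* (−1.78), *Ifi27l2a* (−2.70) and the GTPase *Irgm2* (−2.26) fell as well, with adjusted *p*-values from edgeR of 0.0157 to 0.0215. The summed level of the list was 1542 to 1791 CPM in SCA1-High-FAPs against 953 to 1190 CPM in SCA1-Low-FAPs. *Ly6a* lay in the direction opposite to these genes, and *Ly6e* at 0.07 was near 0. The part of an interferon response in the *Ly6a* and *Ly6e* values was not tested.

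**Figure D4:**
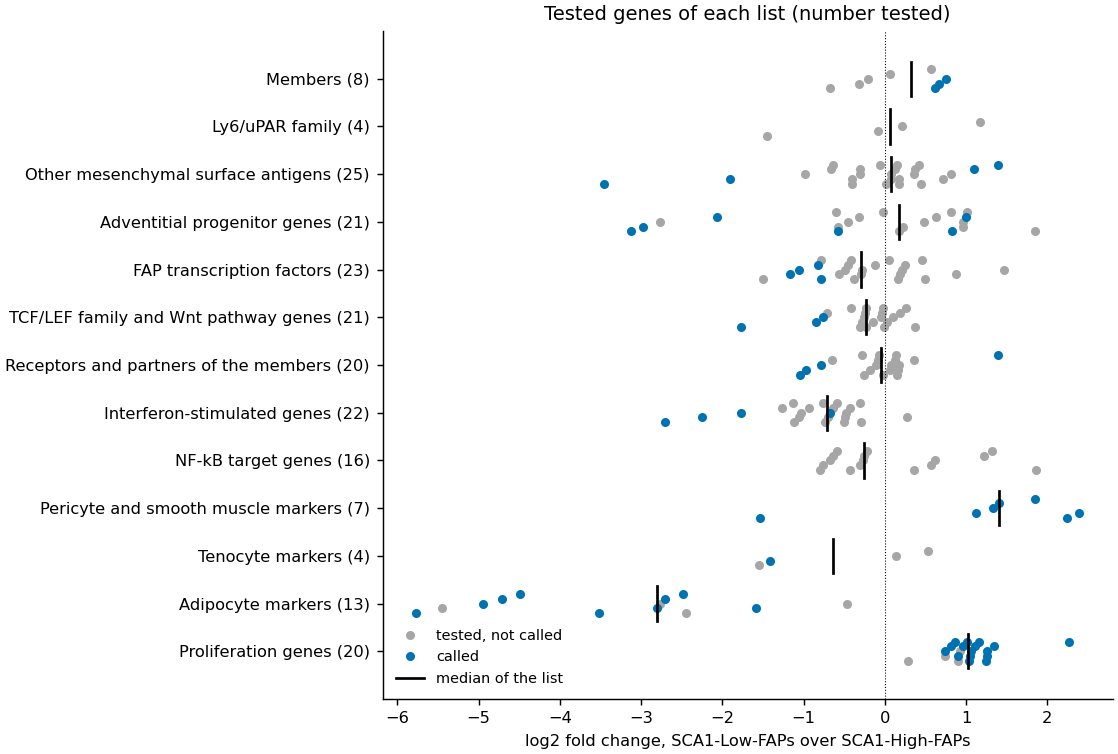
Log2 fold change in SCA1-Low-FAPs relative to SCA1-High-FAPs (horizontal axis) for each tested gene of the lists with at least 4 tested genes. Points are genes, blue where called by edgeR and grey where not, and black lines are the medians of the lists. The proliferation genes lie at positive values (median 1.02), the adipocyte markers at negative ones (median −2.81), and the 10 marker genes (first line, 8 tested) on both sides.

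Across the 8 libraries, *Ly6a* was most closely followed by genes that are not surface markers. Likeness was taken as the root-mean-square difference in log2 CPM after each gene was centred on its mean, over 10180 other tested genes. The nearest were *Cars* (0.113), *Polr3d* (0.129), *Fmod* (0.137), *Slc10a7* (0.140) and *Fbln2* (0.145), which encode a transfer RNA synthetase, a subunit of RNA polymerase III, fibromodulin, a membrane transporter-like protein and fibulin-2. Among the marker genes, *Thy1* was nearest to *Ly6a* (0.244, rank 109), followed by *Eng* (0.330, rank 706). The paralogs were farther, *Ly6e* at rank 2505 (0.437) and *Ly6c1* at rank 5024 (0.558), and *Vcam1* was the farthest of the 8 at rank 8474 (0.844). *Thy1* was also the nearest marker gene to *Eng* (0.297) and to *Cd34* (0.638). By comparison, the root-mean-square deviation of a gene from its own mean was 0.406 for *Ly6a*, 0.369 for *Thy1*, 0.422 for *Eng* and 0.739 for *Cd34*. The distances of *Ly6e*, *Ly6c1* and *Vcam1* from *Ly6a* were above the own deviation of *Ly6a*, and show no likeness to it. The distance of *Cd34* from *Thy1* was above the own deviation of *Thy1* and below that of *Cd34*. The nearest to *Ly6c1* was *Vcam1* (0.379). That distance was about equal to the own deviation of *Ly6c1* (0.379) but below that of *Vcam1* (0.535). The nearest to *Ly6e* was *Tcf7l2* (0.268). That distance was above the own deviations of *Ly6e* (0.143) and *Tcf7l2* (0.243), and shows no likeness. This measure favours genes of small variation, describes 8 libraries that share their depth and cell state, and was not tested.

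Other cell programmes moved with the states beside the markers. Of all 10181 tested genes, 3.32% were called as higher in SCA1-Low-FAPs and 4.36% as higher in SCA1-High-FAPs. Proliferation genes were called higher in SCA1-Low-FAPs in 16 of 20 cases, with *Aurka* at a log2 fold change of 2.27 and *Plk1* at 1.26, and their summed level was 984 to 1361 CPM in SCA1-High-FAPs against 1973 to 2810 CPM in SCA1-Low-FAPs. Adipocyte markers were called higher in SCA1-High-FAPs in 9 of 13 cases, with *Adrb3* at −4.94 and *Retn* at −4.49, while DESeq2 called 12 and limma-voom 3 of them. They summed to 3248 to 13237 CPM and 578 to 1567 CPM. Of 7 tested pericyte and smooth muscle markers, 6 were called higher in SCA1-Low-FAPs, among them *Actg2* (2.24) and *Cnn1* (1.34), while *Notch3* (−1.54) was called higher in SCA1-High-FAPs, and the sums were 745 to 1958 CPM and 2453 to 3696 CPM. Within SCA1-High-FAPs, replicate 1 had the highest adipocyte sum and the lowest *Ly6a*, and replicate 4 the lowest adipocyte sum and the highest *Ly6a*. The order was the opposite within SCA1-Low-FAPs, where replicate 3 was the highest and replicate 4 the lowest in both. Leucocyte markers summed to 29.4 to 48.4 CPM in SCA1-High-FAPs against 20.7 to 24.4 CPM in SCA1-Low-FAPs, with no counts for *Adgre1*, *Itgam*, *Tyrobp*, *C1qb*, *Cd3e* and *Cd79a*, and with *Lyz2* called at −1.42. Myogenic markers summed to 2.71 to 11.3 CPM and 7.61 to 25.6 CPM, and *Pax7*, *Myf5*, *Myod1*, *Myog*, *Mymk*, *Myh3* and *Ckm* had no counts. The 1 tested gene of this list had a log2 fold change of 2.03. Every SCA1-Low-FAPs library lay above every SCA1-High-FAPs library for it, as for 6.67% of all tested genes. Its unadjusted p by edgeR was under 0.05, and DESeq2 called it, whereas edgeR and limma-voom did not. The part of these programmes in the values of *Ly6a*, *Thy1*, *Eng* and *Cd55* was not tested.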

How the data were processed

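FAPs of *mdx* mice were sorted by surface SCA-1, grown for 5 days in GM and used for 3′ mRNA libraries, 4 per cell state. The authors trimmed the reads, aligned them with STAR to mm10 and counted unique reads per Ensembl gene with htseq-count, and the deposited values are these raw counts without normalisation. The strand setting is not given in the sources used here. Summary entries of the counter were left out, and 13.3% to 16.4% of unique reads fell on no gene. Of 31053 gene identifiers, 31011 matched GENCODE M21 on GRCm38, which gave names and positions.

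Counts were compared with edgeR 4.0.16 (R 4.3.3): TMM, filterByExpr (minimum 10 counts, 15 in total), the robust quasi-likelihood test and Benjamini-Hochberg adjustment over 10181 genes. Genes were called at an adjusted *p*-value below 0.05 with an absolute log2 fold change above 0.5. Standard errors were derived from the log2 fold change and its F statistic, and 95% intervals use the test's degrees of freedom. Single values were tested by two-sided exact permutation over 70 assignments. Alternatives used DESeq2 1.42.0, limma 3.58.1, RLE or upper-quartile factors, other filters and thresholds, a replicate block and each library left out. The tests were checked on simulated data. Promoters came from RefSeq, and figures were made with matplotlib 3.10.9.

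The marker genes and gene lists were chosen with earlier results of these data known. All marker genes are named, with the sort antigens, cytometry genes and, from each list, called genes up to 6 by lowest adjusted *p*-value. *Acvrl1*, *Id1*, *Ctnnb1* and the tested Ly6/uPAR genes were named after their values were seen.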

Additional observations from a re-analysis of the deposited data

Results flagged for a closer look

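In a group of 4 libraries, a value was noted where its gap to the nearest other took up nearly the whole range (Dixon's critical value for 4 samples). Of 26 groups checked, 2 did so, and chance gives about 1 in 20. *Cd34* in replicate 3 of SCA1-High-FAPs, at 8.35 CPM, lay below the other 3 (gap 0.846 of the range). The log2 ratio of *Ly6a* to *Ly6e* in replicate 4 of SCA1-Low-FAPs, at 2.76, lay below the other 3 (gap 0.924 of the range), where *Ly6a* had its lowest and *Ly6e* its highest level among SCA1-Low-FAPs.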

How the results depend on the processing

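The 3 calls (*Ly6a*, *Thy1*, *Eng*) were the same with DESeq2, limma-voom, RLE or upper-quartile factors, at least 10 counts in every library, a fold change limit of 1.5 and no fold limit. With no filter beyond 1 count, *Vcam1* was added. Of the gene lists, the count moved by over 1.5 times for adipocyte markers (9 with edgeR, 12 with DESeq2, 3 with limma-voom), interferon-stimulated genes (4, 8 and 5), pericyte and smooth muscle markers (7, 7 and 4), NF-kB targets (0, 4 and 2) and tenocyte markers (1, 2 and 1), and for the 1 tested myogenic gene (0, 1 and 0). At an adjusted *p*-value of 0.01, 307 of all genes and 0 of the marker genes were called, against 782 and 3. With a library left out, 410 to 1017 genes and 0 to 3 marker genes were called, the lowest being 0 without replicate 1 of SCA1-Low-FAPs, and without its replicate 2 only *Thy1* was. All genes fell to 417 without replicate 1 and to 410 without replicate 4 of SCA1-Low-FAPs, where the cause was not tested. In these fits the difference in the log2 ratio of *Ly6a* to *Ly6c1* was 0.71 to 1.07, and that of *Cd55* was −2.47 to −1.42. The log2 fold change of *Ly6e* changed sign without replicate 4 of SCA1-Low-FAPs, to −0.0103, and lay between this value and 0.16 in these fits, while no other tested marker gene changed sign under any alternative run.

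Equal replicate numbers are not stated to mean the same mouse, and deviations from the group means correlated at −0.0502 to 0.0067 for equal numbers and −0.282 to 0.255 for others, so the numbers were not taken to pair the libraries. With the replicate block, edgeR called 697 genes and DESeq2 839. Among the marker genes, edgeR with the replicate block called *Eng*, *Thy1* and *Vcam1* (log2 fold change −0.70, adjusted p = 0.0209) but not *Ly6a* (0.65, adjusted p = 0.0573), and DESeq2 with the block called all 4. *Cd55* did not pass with this DESeq2 block (log2 fold change −2.28, adjusted p = 0.0689). A sign-flip test on the ratio of *Ly6a* to *Ly6c1* with the block gave an exact p of 0.125, the smallest that 16 assignments allow. *Cd34* could not be tested with at least 10 counts in every library. Depth limits *Pi16* and *Cd55*, which had too few counts for the test, and *Cd34*.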

Other observations

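Tenocyte markers summed to 521 to 756 CPM in the libraries labelled SCA1-High-FAPs and 574 to 996 CPM in those labelled SCA1-Low-FAPs, and 1 of 4 tested, *Comp*, a protein of cartilage and tendon matrix, was called, at a log2 fold change of −1.41 (edgeR adjusted p = 0.0017). Schwann cell markers summed to 217 to 271 CPM and 175 to 238 CPM, and of the 2 tested, edgeR called 0 and DESeq2 and limma-voom 0, with 0 at an unadjusted p under 0.05 by edgeR.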
